A study of Caenorhabditis elegans with 2 samples.

Results

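The 10 genes *lin-14*, *lin-28*, *hbl-1*, *lin-46*, *lin-41*, *lin-29*, *lin-42*, *alg-1*, *nhl-2* and *puf-9* time the larval stages of *Caenorhabditis elegans*, and they are described here out of 19973 protein-coding nuclear genes in the Ensembl annotation of WBcel235. They were chosen by name as regulators of stage timing, with the signals and optimal calls of these data already in view, so the values at them serve as description only. A region was counted at a gene when its summit, the point of highest signal, lay in the gene body or within 5 kb of it on ce11. By that rule the list of candidates from pooled reads held 87 regions at these genes out of 30000, and the authors' optimal list held 11 out of 1917. The list of replicate 1 held 95 regions and that of replicate 2 held 86, again out of 30000 each.

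The data come from chromatin immunoprecipitation followed by sequencing (ChIP-seq) of LIN-11, a LIM homeodomain transcription factor, in whole larvae at the second larval stage, L2. The single group had 2 biological replicates of strain OP62, with genotype unc-119(ed3) III; wgIs62, carrying a LIN-11 transgene tagged with GFP. The description of both samples reads ChIP-seq against eGFP-lin-11. A C-terminal GFP-FLAG fusion is noted on the label of replicate 1 only, and the antibody entry of both labels reads lin-11. Worms of both sexes were pooled. Replicate 1 came from the producing laboratory with microtip sonication, replicate 2 came from the CGC stock centre with fragments of 150 to 350 bp, and the promoter of the transgene is not stated in the sources used here. Whole larvae were used, so binding in a few cells cannot be told apart from weaker binding in many. No untagged animals and no second condition were analysed here, and the part of non-specific signal in the regions was not tested. Read depth behind each signal is unknown, and with 1 group of 2 samples and genes chosen with results known, all values below are descriptions without a test.

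The heterochronic pathway orders cell divisions and fates from one larval stage to the next. Early regulators such as LIN-14, LIN-28 and HBL-1 hold cells in early programmes until microRNAs (miRNAs) of the *lin-4* and *let-7* families silence them, and the later regulator LIN-29 then brings on adult fates. Argonaute and its cofactors carry out the silencing, and L2 is the stage at which LIN-28 and HBL-1 are known to set the seam cell programme.

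Of the 11 optimal regions at these genes, 7 are shown first by their sequence, because letters that recur among them, and are missing at *lin-46*, are part of the description below. Each run is WBcel235 sequence from RefSeq around a summit in the optimal list, read 5′ to 3′ on the strand of the named gene. The stretches end 100 bp from the summit, except on the left side of *lin-46*, which stops short of the exon of the neighbouring gene R186.8. Capitals mark GAGAGA or its reverse complement TCTCTC. The runs were not taken in order of signal, and the *lin-41* region, with a pooled signal of 65.6, is not among them. The *lin-42* region 5362 bp from the gene's start is not shown either. Its match was centred 103.5 bp from the summit, beyond the reach of such a run. The *puf-9* run is X:5841201-5841401 (plus strand), *nhl-2* is III:4899808-4900008 (minus), *lin-14* at 6628 bp is X:11472088-11472288 (plus), *lin-14* at 1897 bp is X:11467357-11467557 (plus), *alg-1* is X:13945615-13945815 (plus), *lin-42* is II:1237961-1238161 (minus) and *lin-46* is V:12967988-12968158 (plus).
puf-9: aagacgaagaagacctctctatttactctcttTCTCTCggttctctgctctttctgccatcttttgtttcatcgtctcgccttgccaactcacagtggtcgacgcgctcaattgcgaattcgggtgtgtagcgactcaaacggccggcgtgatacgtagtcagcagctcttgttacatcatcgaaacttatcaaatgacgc
nhl-2: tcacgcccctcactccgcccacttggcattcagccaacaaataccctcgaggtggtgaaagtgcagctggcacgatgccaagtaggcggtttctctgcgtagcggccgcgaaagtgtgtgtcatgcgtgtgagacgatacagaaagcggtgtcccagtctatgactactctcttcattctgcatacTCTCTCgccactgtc
lin-14 at 6628 bp: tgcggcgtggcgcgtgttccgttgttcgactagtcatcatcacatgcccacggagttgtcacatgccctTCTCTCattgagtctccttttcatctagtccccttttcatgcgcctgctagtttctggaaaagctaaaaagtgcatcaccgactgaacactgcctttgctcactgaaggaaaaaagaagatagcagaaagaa
lin-14 at 1897 bp: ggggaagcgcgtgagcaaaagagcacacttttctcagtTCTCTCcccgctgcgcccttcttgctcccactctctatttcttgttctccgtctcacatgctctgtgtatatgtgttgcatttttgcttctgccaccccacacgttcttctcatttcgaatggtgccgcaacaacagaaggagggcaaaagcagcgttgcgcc
alg-1: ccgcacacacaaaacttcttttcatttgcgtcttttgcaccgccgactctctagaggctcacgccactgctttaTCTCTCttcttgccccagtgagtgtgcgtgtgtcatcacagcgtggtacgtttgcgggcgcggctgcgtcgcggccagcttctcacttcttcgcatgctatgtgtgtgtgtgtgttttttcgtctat
lin-42: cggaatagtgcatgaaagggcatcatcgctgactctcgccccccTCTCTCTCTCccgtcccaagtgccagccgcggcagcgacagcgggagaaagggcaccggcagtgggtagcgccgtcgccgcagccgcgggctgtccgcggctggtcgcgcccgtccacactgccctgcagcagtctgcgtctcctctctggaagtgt
lin-46: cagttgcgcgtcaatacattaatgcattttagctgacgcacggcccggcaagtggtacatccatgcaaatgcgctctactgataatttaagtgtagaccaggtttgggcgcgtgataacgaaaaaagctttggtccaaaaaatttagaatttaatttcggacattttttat

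LIN-11 regions of the optimal list lay at 8 of the 10 genes, and *hbl-1* and *lin-29* had none. The same window held an optimal summit at 23.3% of all protein-coding genes, and at 33.4% of the 2185 genes at least as long as the median of these 10, 6383 bp. The genes were chosen with such results known, so nothing is read from that difference. Of the 11 optimal regions, 3 were at *lin-14*, 2 at *lin-42* and 1 each at the other 6 genes. Their pooled signals, the authors' own value per region, ran from 36.98 to 194.3, with a median of 59.6, against a median of 45.97 for the 1906 optimal regions elsewhere. The lowest signal in the optimal list was 27.8. At these genes the weakest region inside the list was the 36.98 at *lin-46*, and the strongest outside it was 25.2 in an intron of *lin-14*, at rank 2204.

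**Figure D1:**
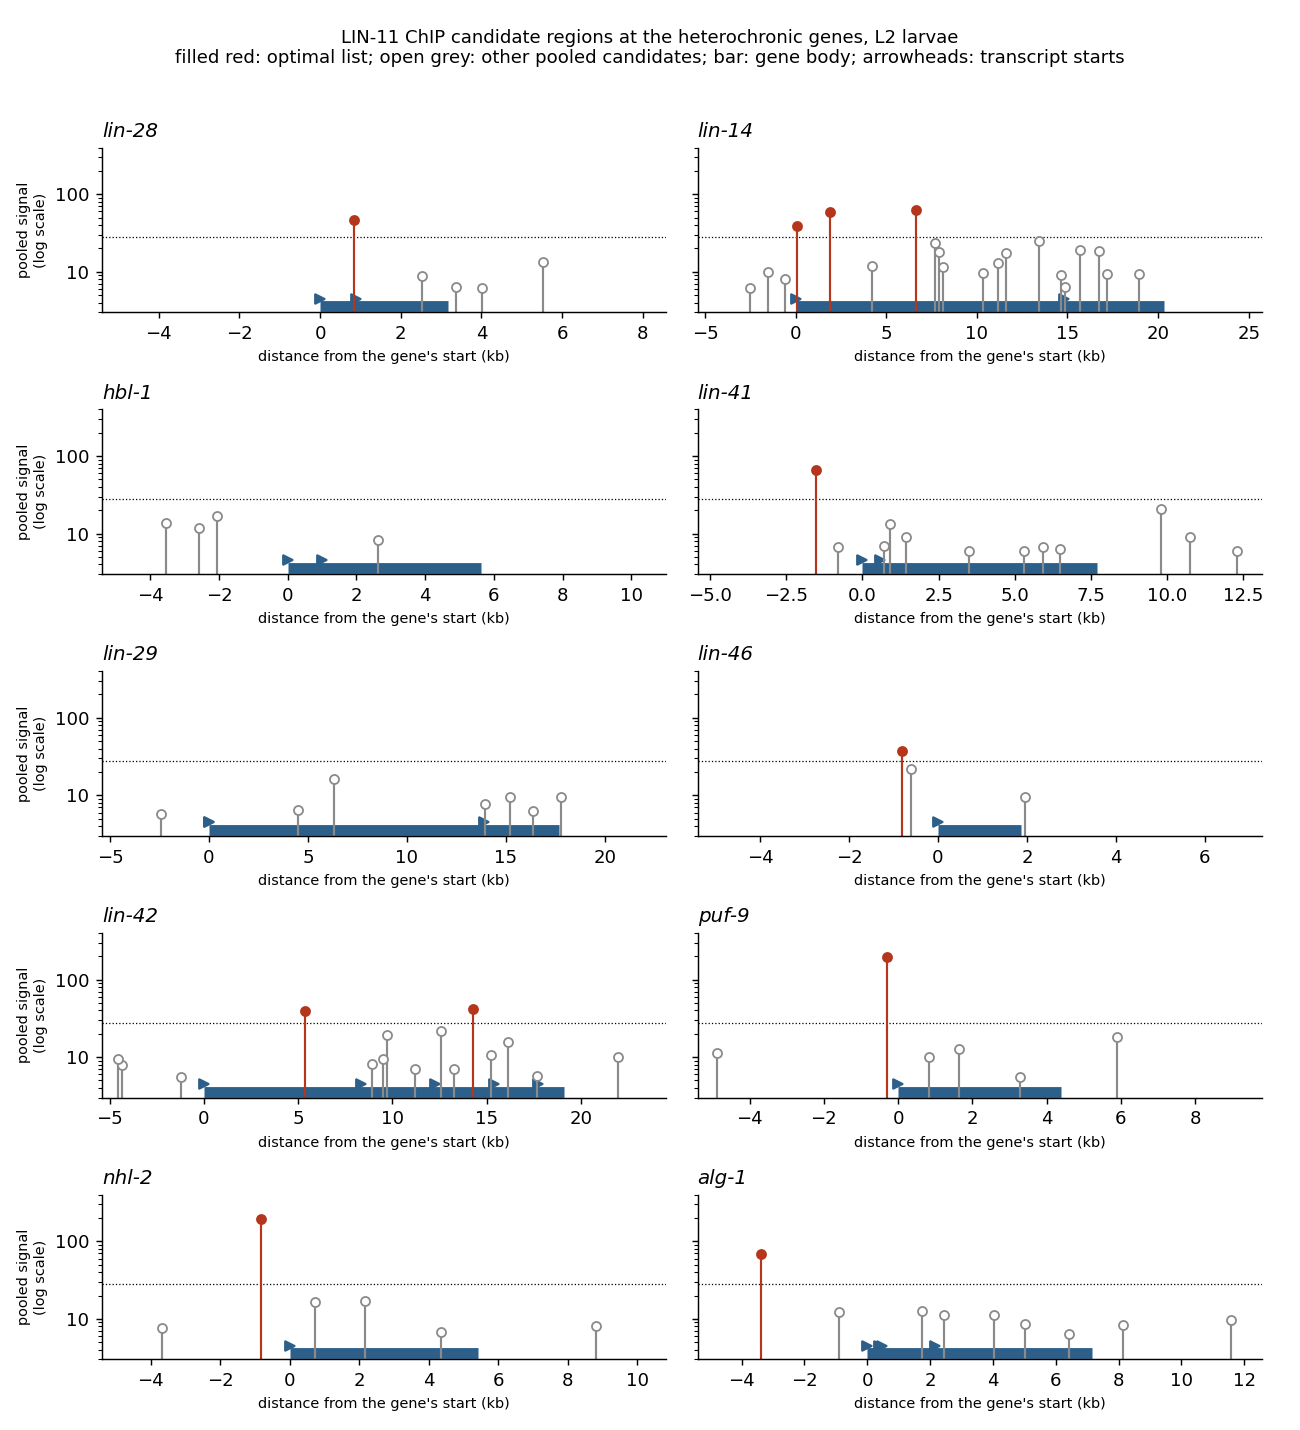
Candidate regions at the 10 genes, plotted by the distance of the summit from the gene's start in kb (in the direction of transcription) and by pooled signal on a log axis. Red filled points are the 11 optimal regions, open grey points the other 76 pooled candidates, and the dotted line is the lowest signal of the optimal list, 27.8; the highest points stand just upstream of *puf-9* and *nhl-2*.

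None of the 11 optimal summits lay in a coding exon. There were 5 upstream of their gene, 5 in introns and 1 in the 5′ UTR of *lin-14*. Counted by the same gene, the other 76 candidates had 19 in coding exons, 23 in introns, 15 upstream, 13 downstream and 6 in UTRs. Intron and upstream places were not counted for optimal regions elsewhere. Of the 11 optimal summits, 5 fell in a promoter window, which reached 1000 bp before and 200 bp past the start of a coding transcript. Those 5 (45.5%) were at *puf-9*, *nhl-2*, *lin-46*, *lin-28* and the first start of *lin-14*, and 65.0% of optimal regions elsewhere fell in such a window. Coding exons of any gene held 0 of the 11 optimal summits, against 1.94% of those elsewhere, and 26 of the 76 other candidates (34.2%), against 38.1% of those elsewhere. The scarcity of optimal summits in coding exons is thus shared by the whole list.

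Among the early regulators, *lin-14* (X:11465560-11485871, plus strand) carried the most candidates. This gene encodes a nuclear protein that promotes first-stage fates and is the classical target of *lin-4*. It had 20 pooled candidates in its window, or 0.660 per kb, against 0.452 per kb over all 10 windows and 0.299 per kb over the nuclear genome. Candidates that overlap each other were counted separately. The density in the same windows of other genes was not computed, and the genome value includes sequence far from genes. The late regulator *lin-41* had a higher density, 0.678 per kb. The strongest optimal region of *lin-14* (X:11472026-11472349) lay in an intron, 6628 bp from the gene's start, and reached 62.2 in the pooled list (rank 526). Replicate 1 gave it 30.5 (rank 358) and replicate 2 gave it 32.2 (rank 777). The next (X:11467295-11467618) was also intronic, at 1897 bp, and reached 59.6 in the pooled list (rank 591), 25.2 in replicate 1 (rank 550) and 37.3 in replicate 2 (rank 591). The third (X:11465453-11465776) had its summit 55 bp past the start, in the 5′ UTR, and reached 39.5 in the pooled list (rank 1193), 15.0 in replicate 1 (rank 1445) and 21.4 in replicate 2 (rank 1446). All 3 were thus among the 1917 strongest regions of each replicate. Signal sizes are not comparable between lists, whose scaling is not stated, so replicates are compared by rank.

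Further into *lin-14* no candidate reached the optimal list, but single replicates ranked some there about as high as the region at the start. Replicate 1 had 5 *lin-14* regions among its 1917 strongest and replicate 2 had 4. Besides the 3 optimal ones, these were a replicate 1 region at 11449 bp (14.4, rank 1546), with no pooled summit within 100 bp, the region at 13440 bp in replicate 1 and a replicate 2 region at 7656 bp (19.7, rank 1616). In the pooled list, the region at 13440 bp reached 25.2, and it ranked 1458 in replicate 1 and 4217 in replicate 2, and lay 1361 bp before the second annotated transcript start at 14801 bp. A group at 7679, 7906 and 8107 bp had pooled signals of 23.3, 18.2 and 11.5. At the second start itself the candidates reached 8.99 and 6.33 only. The *lin-14* optimal regions were therefore all in the part of the gene that only the longer transcript covers.

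*lin-28* (I:8407630-8410804, minus strand) encodes an RNA-binding protein that promotes second-stage fates and blocks maturation of *let-7*. Its single optimal region (I:8409799-8410122) had a summit 843 bp past the outermost start, in an intron of the longer transcript and 41 bp upstream of the start of the shorter one. It reached 47.2 in the pooled list (rank 921), 16.0 in replicate 1 (rank 1288) and 36.4 in replicate 2 (rank 623), and so stood higher by rank in replicate 2. The other 4 pooled candidates had signals of 6.19 to 13.2, and none lay upstream of the gene.

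*hbl-1* (X:5822142-5827755, plus strand), which encodes the Hunchback-like zinc-finger factor of the same stage, had 4 candidates and no optimal region. The strongest lay 2049 bp upstream and reached 16.8 in the pooled list (rank 3948). It ranked 1935 in replicate 1, just beyond the 1917 strongest, and 16696 in replicate 2, so the replicates placed it far apart. Replicate 1 also had a candidate within 9 bp of the pooled summit at 2577 bp upstream, with signal 11.9 and rank 2266. The nearest optimal summit to *hbl-1* lay 9995 bp upstream of the gene, outside the window, with a signal of 44.3.

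*lin-46* (V:12968855-12970730, plus strand) encodes a gephyrin-related protein that acts against the early programme downstream of LIN-28. Its optimal region (V:12967896-12968219) was the weakest of the 11, at 36.98. Replicate 1 gave it 10.4 (rank 2955) and replicate 2 gave it 25.4 (rank 1128), and it was the one optimal region at these genes outside the 1917 strongest of a replicate. The summit lay 797 bp upstream of *lin-46* but 76 bp upstream of R186.8, on the opposite strand, and the promoter window of R186.3 held it too. A second candidate with signal 21.9 followed 596 bp upstream of *lin-46*.

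Of the late regulators, *lin-41* (I:9334800-9342496, minus strand) encodes a TRIM-NHL RNA-binding protein that is a main target of *let-7*. Its optimal region (I:9343860-9344183), 1526 bp upstream, reached 65.6 in the pooled list (rank 466). Replicate 1 gave it 33.0 (rank 291) and replicate 2 gave it 27.3 (rank 1015). The remaining 11 candidates had signals of 5.97 to 20.8. The strongest of them lay beyond the gene's end, 9783 bp from its start, and ranked 1786 in replicate 2, with no replicate 1 summit within 100 bp.

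At *lin-42* (II:1233236-1252359, minus strand), the worm homologue of the circadian gene *Period*, both optimal regions were intronic. Their summits lay 5362 and 14298 bp from the gene's outermost start, and the annotation gives 5 transcript starts. The region at 14298 bp (II:1237899-1238222) lay 1092 bp upstream of the internal start at 15390 bp. It reached 41.5 in the pooled list (rank 1114), 23.3 in replicate 1 (rank 648) and 21.8 in replicate 2 (rank 1408). The region at 5362 bp (II:1246835-1247158) lay 2962 bp upstream of the internal start at 8324 bp and reached 39.9 in the pooled list (rank 1172), 20.4 in replicate 1 (rank 831) and 21.4 in replicate 2 (rank 1444). No optimal region was found in the 5 kb upstream of the whole gene, where the 3 candidates had signals of 5.59 to 9.40. Replicate 1 placed 5 *lin-42* regions among its 1917 strongest and replicate 2 placed 2.

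*lin-29* (II:11917642-11935343, minus strand), the zinc-finger factor of the larval-to-adult switch, had 7 candidates in its 27.7 kb window, or 0.253 per kb, and no optimal region. The strongest, in an intron 6298 bp from the start, reached 16.4 in the pooled list (rank 4129). Its rank was 19506 in replicate 1 and 4543 in replicate 2. The nearest optimal summit lay 24053 bp upstream of the gene. *hbl-1* and *lin-29* thus had the lowest maxima of the 10 genes in the pooled list, 16.8 and 16.4.

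The 3 genes that act with miRNAs are described next. *nhl-2* (III:4893658-4899085, minus strand) encodes a TRIM-NHL cofactor of the miRNA complex. Its optimal region (III:4899870-4899986), 823 bp upstream, reached 194.3 in the pooled list (rank 13). Replicate 1 gave it 73.3 (rank 11) and replicate 2 gave it 117.6 (rank 24). The summit was 600 bp upstream of *tag-340* on the opposite strand, so the region belongs to the promoter windows of both genes.

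*puf-9* (X:5841592-5845987, plus strand) encodes a Pumilio-family protein that acts with miRNAs on targets such as *hbl-1*. The region 291 bp upstream (X:5841265-5841402) reached 193.8 in the pooled list (rank 14), 65.8 in replicate 1 (rank 21) and 128.3 in replicate 2 (rank 12). No other protein-coding gene shared its promoter window. The *puf-9* and *nhl-2* regions were 138 and 117 bp wide, and the other 9 optimal regions had the usual pooled width of 324 bp.

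*alg-1* (X:13949110-13956261, plus strand) encodes an Argonaute protein of the miRNA pathway. Its optimal region (X:13945553-13945876) lay 3395 bp upstream of the outermost start, with no nearer protein-coding start. It reached 68.0 in the pooled list (rank 432), 46.1 in replicate 1 (rank 106) and 29.4 in replicate 2 (rank 913). Its replicates thus differed more in rank than those of *nhl-2* and *puf-9*. The other 8 candidates, from 909 bp upstream to beyond the gene's end, had signals of 6.41 to 12.8.

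**Figure D2:**
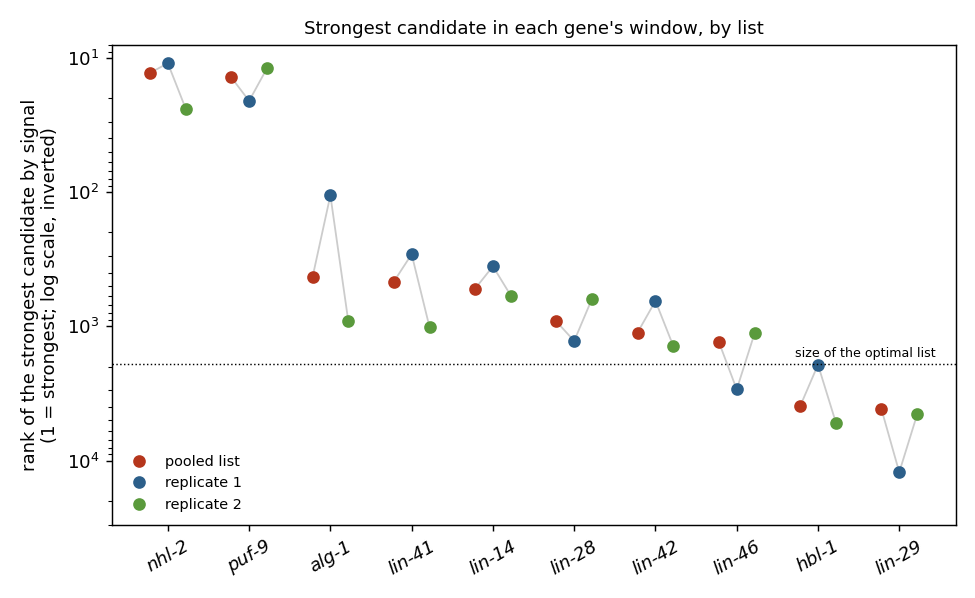
Rank by signal of the strongest candidate in the window of each gene, on an inverted log axis, in the pooled list, replicate 1 and replicate 2, with the size of the optimal list (1917) dotted. *nhl-2* and *puf-9* rank between 11 and 24 in every list, and *hbl-1* and *lin-29* are below the line in every list.

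The lists of the single replicates were then read in the same way. Among the 1917 strongest regions of replicate 1 were 16 at these genes, spread over 7 of the 10, and 22.1% of all protein-coding genes had such a summit in the same window. Replicate 2 had 13 regions at 8 of the 10 genes, and 23.3% of all protein-coding genes had one. The difference in genes was *lin-46*, present in replicate 2 only. All 11 optimal regions had a summit within 100 bp in both replicates, which held for 91.3% of the 1906 optimal regions elsewhere. In 10 of the 11 the match was among the 1917 strongest regions of both replicates, which held for 57.2% elsewhere. Optimal regions come from the pooled reads of these replicates, so such matches are partly built in. The 11 regions also had a higher median pooled signal than those elsewhere (59.6 against 45.97). Optimal regions elsewhere of equal signal were not counted, so nothing is read from these differences.

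**Figure D3:**
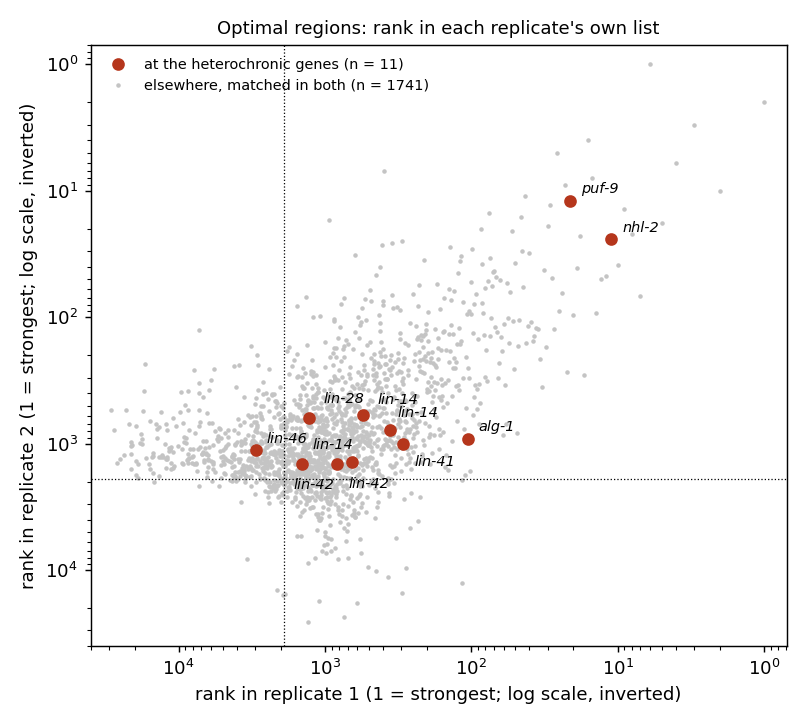
Rank of each optimal region in replicate 1 and in replicate 2 on inverted log axes, for the 11 regions at the heterochronic genes (red, named) and the 1741 elsewhere that were matched in both (grey). Dotted lines mark rank 1917; *lin-46* is the one named point beyond it, in replicate 1.

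Weaker candidates were recovered less often. Of the 76 non-optimal pooled candidates at these genes, 17 had a summit within 100 bp in both replicates (22.4%), against 20.5% of the 28007 elsewhere. Their median pooled signal was 9.51, against 8.23 elsewhere. In replicate 1, 43 of 95 candidates at these genes (45.3%) had no pooled summit within 100 bp, against 47.3% of its candidates elsewhere. In replicate 2 it was 35 of 86 (40.7%), against 43.5% elsewhere, so the shares at these genes were near those of the whole lists.

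The letters around the summits were then compared. Windows of 150 bp on each side were searched on both strands for TAATTA (the core known for LIM homeodomain proteins), the variant TAATTG, the repeat GAGAGA and the E-box CACGTG, and overlapping matches were counted. GAGAGA was present in 10 of the 11 optimal regions (90.9%), against 960 of 1906 optimal regions elsewhere (50.4%). Among non-optimal candidates it was present in 19 of 76 at these genes (25%), against 5758 of 28007 elsewhere (20.6%). The optimal region without it was the one at *lin-46*. In 9 of the 11 a match was centred within 100 bp of the summit, the nearest at *alg-1*, 23.5 bp away. The next was in the *lin-14* intron region at 6628 bp, 28.5 bp away. Matches within 100 bp were not counted in optimal regions elsewhere, so nothing is read from these distances. The *lin-42* run printed above holds 3 overlapping copies as TCTCTCTCTC.

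TAATTA was in none of the 11, against 182 of 1906 optimal regions elsewhere (9.55%) and 2501 of 28007 other candidates elsewhere (8.93%). TAATTG was in 1 of the 11, at *nhl-2*, and 13.7% of optimal regions elsewhere held it. CACGTG was in none of the 11, against 8.08% elsewhere. The 11 windows had a median GC content of 50.8%, from 40.5% at *lin-46* to 65.8% at the *lin-42* region 14298 bp from the start, against a median of 43.5% in optimal regions elsewhere. The part of GC content in the share of windows with GAGAGA was not tested. With 11 regions, the absence of a 6-base word says only that these letters are not in these windows.

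Of the 11 optimal summits, 5 (45.5%) lay within genes annotated as ncRNA, against 218 of the 1906 elsewhere (11.4%). Among other candidates the shares were 5 of 76 (6.58%) at these genes, against 2.79% elsewhere. With so few regions the difference was not tested. The 5 optimal summits were those at *puf-9* (W06B11.7 and W06B11.9), *nhl-2* (F26F4.14), *alg-1* (K02B9.6), the *lin-14* region at 1897 bp (T25C12.7) and the *lin-42* region at 5362 bp (F47F6.13). The function of these transcripts is not annotated in the files.

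Of 30 further genes of the pathway, 12 had an optimal summit under the same rule, and 18 had none. Among them were 8 of the 24 protein-coding genes (33.3%), beside the 23.3% of all protein-coding genes and the 33.4% of the longer ones given above. The 24 genes were not matched by length to either set, and some, such as *lin-66* and *cgh-1*, are shorter than 6383 bp. The other 4 of the 12 were among the 5 miRNA genes, and rest on 3 regions because *mir-48* and *mir-241* share one. Of all 261 annotated nuclear miRNA genes, 28% had an optimal summit under the same rule. The highest was *lin-66*, which limits LIN-28, at 100.1 and 349 bp upstream. The next were *xrn-2*, the exonuclease of mature miRNAs (95.2, 1231 bp upstream and nearer to Y48B6A.1), *hrpk-1*, an hnRNP K homologue (93.1, intronic), and *ain-1*, the GW182-type partner of Argonaute (90.6, 990 bp upstream). *daf-12*, the steroid receptor that couples stage timing to nutrition, had a maximum of 77.9 in an intron 1701 bp from its start. *cgh-1*, the DDX6 helicase (70.6, with C07H6.9 nearer), the casein kinase gene *kin-20* (67.8) and the DAF-12 corepressor gene *din-1* (60.4) followed. In each of these 8 genes the strongest region was also among the 1917 strongest of both replicates. The genes were named by high signal in the pooled reads of these replicates, so such matches are partly built in. Equally strong optimal regions elsewhere were not counted, so nothing is read from these matches.

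The 4 *let-7* family miRNA genes of the list each had an optimal region upstream. *let-7* is named by its rank in the list, as is *mir-84*, while *mir-48*, *mir-241* and *lin-4* were singled out after their values were seen. Their mature 5′ arm sequences, from RefSeq (WBcel235) and written with T, are given because the 4 family members share a seed and *lin-4* does not. Capitals mark the seed, bases 2 to 8.
let-7 (X, minus strand): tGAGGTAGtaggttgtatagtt
mir-84 (X, minus strand): tGAGGTAGtatgtaatattgtaga
mir-48 (V, minus strand): tGAGGTAGgctcagtagatgcga
mir-241 (V, minus strand): tGAGGTAGgtgcgagaaatga
lin-4 (II, plus strand): tCCCTGAGacctcaagtgtga

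The *let-7* region (X:14747016-14747339) had its summit 2923 bp before the mature sequence, 1857 bp upstream of the annotated primary transcript and 125 bp from a start of C05G5.2. It reached 67.1 in the pooled list (rank 447), 22.3 in replicate 1 (rank 698) and 45.3 in replicate 2 (rank 405). The *mir-84* region (X:16024642-16024965) lay 2334 bp before the mature sequence, reached 63.8 in the pooled list (rank 491), and ranked 152 in replicate 1 and 1521 in replicate 2. A single region (V:14366588-14366911) lay 2256 bp before the mature sequence of *mir-48* and 482 bp before that of *mir-241*. It reached 37.5 in the pooled list (rank 1274), 17.3 in replicate 1 (rank 1118) and 22.3 in replicate 2 (rank 1355). At *lin-4* the strongest candidate lay 370 bp upstream with a signal of 26.3 and rank 2061, just below the optimal list, and it ranked 6146 in replicate 1 and 2014 in replicate 2.

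**Figure D4:**
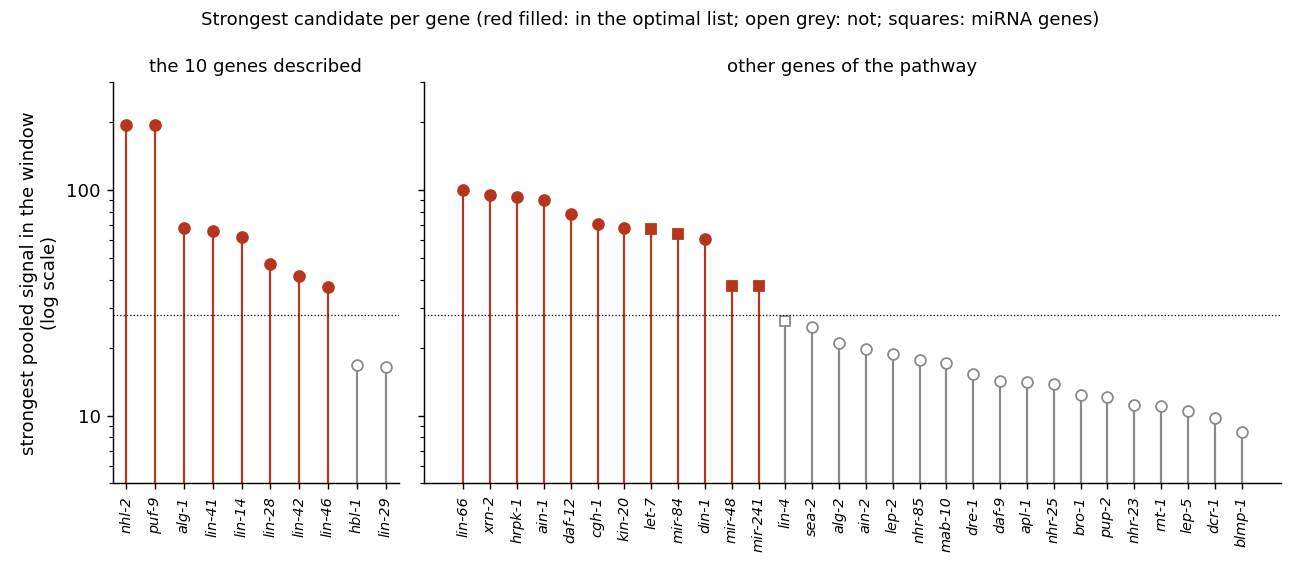
Strongest pooled signal in the window of each of the 10 genes (left) and of the 30 other pathway genes (right) on a log axis, with the lowest optimal signal of 27.8 dotted. Filled red symbols are in the optimal list and squares are miRNA genes; *nhl-2* and *puf-9* stand above every other gene, and *lin-4* lies just under the line.

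The 18 pathway genes without an optimal region had maxima of 8.43 to 26.3. None of their strongest candidates was among the 1917 strongest regions of both replicates. These candidates lay outside the optimal list, so this too is partly built in. GAGAGA was present in 13 of the 18 distinct optimal regions of the pathway genes (72.2%) and TAATTA in 2 (11.1%), beside the 50.4% and 9.55% in optimal regions away from the 10 genes.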

How the data were processed

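LIN-11 ChIP-seq regions of 2 replicates of whole L2 larvae were read from 4 narrowPeak lists on ce11. The 4 lists on ce10 were not used. Per the deposited notes, the authors called regions in each replicate and in pooled reads with a control alignment, and made the optimal list from these by the irreproducible discovery rate. The sources used here name no caller, aligner or threshold. The deposited signal (column 7) is the authors' value per region, with unknown scaling. In the pooled list the deposited −log10 q-value stopped at 3.54, shared by 1749 regions and by all 11 regions described, so the authors' signal was used for ranks.

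Regions were placed by summit (region start plus the deposited offset) on WBcel235, the same assembly, with Ensembl release 115 genes, using Python 3.11.15 and pandas 2.3.3. Coordinates count from 1. Summits matched at 100 bp or less. Gene distances run from the outermost transcript start. Only the steps that place summits in gene windows and find the nearest summit were tested on simulated data.

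The genes, the pathway list and the words searched were chosen with earlier results of these data known. All 10 genes were named. Of the pathway list, up to 10 genes with an optimal summit were to be named by signal. Other genes were named where a described region lay nearest to, or in the promoter window of, their start. No test was made.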

Additional observations from a re-analysis of the deposited data

How the results depend on the processing

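No paired analysis was possible because there was 1 group. Of 27 alternative values, 23 stayed within 1.5 times the reported one. The exceptions were the gene body alone, which left 3 genes with an optimal summit, 6 optimal regions and 54 pooled candidates, and the stronger 50% of the optimal list, with 7 regions. Each of these settings admits fewer regions by construction. The strongest regions of a single replicate gave 7 genes without replicate 2 and 8 without replicate 1. The median rank of the strongest region was 723.5 in the pooled list and 503 to 964 in the replicates. Within 50 bp, 8 of the 11 optimal regions matched in both replicates. Depth is unknown, so absence of a region at *hbl-1* or *lin-29* means only that none reached the optimal list.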
